A study of Mus musculus with 40 samples.

Results

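The gastrocnemius transcriptome of tumor-bearing mice 1 week after allograft (1wk) was compared with that of mice injected with saline (PBS). The comparison took in 16 of the 40 libraries of the series, 8 from 1wk and 8 from PBS mice, and all 12573 genes of the deposited table. All animals were C57BL6/J females drawn at random from a larger study. 1wk mice received Lewis lung carcinoma (LLC) cells, a line derived from a lung tumor of a C57BL mouse, under the skin at 8 weeks of age, and were taken 1 week later at 9 weeks of age. PBS mice received saline alone, also at 8 weeks of age, and were taken at 12 weeks of age. Tumor, age and time since injection therefore cannot be told apart in any value below. The 2wk mice (same cells, 2 weeks of growth, 10 weeks of age) served as the nearest comparator, and LT and HT mice (3 to 4 weeks of growth, 11 to 12 weeks of age) carried low and high tumor mass. The study asked when the muscle transcriptome of female mice first shifts during tumor growth. Each mouse gave 1 library, so the p-values below measure the spread between mice.

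Interferon gamma, released by lymphocytes, binds its receptor on most cells and activates the kinases JAK1 and JAK2. The signal reaches GAS elements in promoters, and the transcription factor IRF1 that it induces binds ISRE elements in the promoters of further target genes. The targets include 2 families of GTPases that attack vacuoles holding pathogens (guanylate-binding proteins and immunity-related GTPases), the immunoproteasome and the peptide transporter that load MHC class I, and the checkpoint ligand PD-L1. Muscle fibers and the endothelial, stromal and immune cells between them carry the receptor, and the basement membrane around each fiber (collagen IV, laminins, nidogens, SPARC) is made largely by stromal and endothelial cells and by the fibers themselves. In whole muscle, fewer cells of a type and less RNA per cell cannot be told apart.

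Values are read counts that the authors divided by a size factor for each library, called scaled values here. The step between low values puts the depth at 19.4 to 26.7 M (mega) reads in 1wk and 19.4 to 28.7 M reads in PBS libraries. All 13 fiber genes checked (among them Acta1, Ckm, Myh4 and Ttn) were in the table, with 17.4 to 22.6% of the summed values in 1wk and 19.2 to 24.9% in PBS mice. None of 22 lymphocyte markers (T, B and NK) was in it. The authors had dropped genes under a minimum of 30 reads, so this does not show that lymphocytes were absent. The 1wk mouse C17 stood apart from the other 15. It held the highest value of the 16 mice for 2928 genes and the lowest for 2601, and the first principal component (35% of the variance) placed it at 71.3, the 1wk mouse C15 at 25.1 and the other 14 mice between -21.7 and 13. The summed level of 31 macrophage markers was 22926 in C17 and 7188 in C15, and it ran from 2569 upward in the 1wk group against 1834 to 4189 in PBS mice. Many results that lean on C17 or C15 are given with and without them. Some list medians are given with all mice only.

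In 1wk muscle 47 genes were lower and 19 were higher than in PBS muscle at an adjusted p under 0.05 (limma, all 5 groups in 1 fit), which is 0.374% and 0.151% of the genes tested. The lower genes moved further. Their median log2 fold change was -1.26, 28 of the 47 changed at least 2-fold and 13 at least 4-fold, whereas the 19 higher genes had a median of 0.56 and none reached 2-fold. Every 1wk mouse lay below every PBS mouse for 30 of the 47 lower genes, and 40 of all genes (0.318%) did so. Every 1wk mouse lay above every PBS mouse for 4 of the 19 higher genes, and 11 of all genes (0.0875%) did so. At an unadjusted p under 0.05 the balance was the other way, with 945 genes higher and 512 lower. Without C17, 43 genes were lower (0.342%) and 5 higher (0.0398%), and without C17 and C15 together 45 were lower (0.358%) and 3 higher (0.0239%). Of the 47 lower genes 40 passed again without both mice, and of the 19 higher genes 3 did (Sparc, Nid1 and Ggta1).

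**Figure D1:**
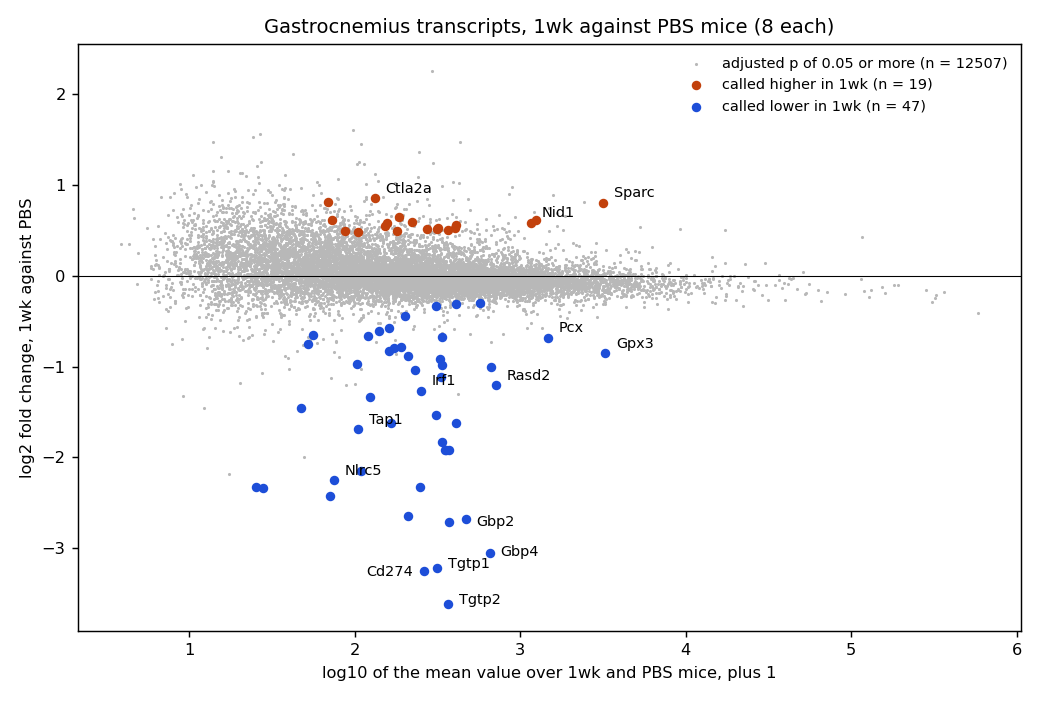
Mean scaled value (log10, horizontal) and log2 fold change of 1wk against PBS (vertical) of 12573 genes, with 19 called higher in orange, 47 called lower in blue and the rest in grey. The blue genes reach down to -3.62 (Tgtp2), while no orange gene passes 0.86 (Ctla2a).

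Lists of interferon-response and antigen presentation genes, chosen with earlier results of these data known, hold 106 of the 12573 genes of the table. Of the 47 lower genes 31 belong to these lists. The promoters of 4 of them with large falls are shown so that the 2 elements of the pathway can be seen in place (RefSeq, GRCm38.p6, 250 bases before to 50 after the start of transcription, 5′ to 3′ on the gene's strand). Capitals mark matches on either strand to GAAANNGAA, the core of an ISRE, and to TTCNNNGAA, a GAS.
Tgtp2 (chr11:49064163-49064462, minus strand): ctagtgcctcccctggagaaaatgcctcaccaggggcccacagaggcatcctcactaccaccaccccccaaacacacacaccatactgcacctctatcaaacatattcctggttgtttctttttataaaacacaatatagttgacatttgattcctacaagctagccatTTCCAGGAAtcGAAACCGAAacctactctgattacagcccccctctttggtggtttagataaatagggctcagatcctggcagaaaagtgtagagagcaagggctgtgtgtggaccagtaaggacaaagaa
Cd274 (chr19:29367188-29367487, plus strand): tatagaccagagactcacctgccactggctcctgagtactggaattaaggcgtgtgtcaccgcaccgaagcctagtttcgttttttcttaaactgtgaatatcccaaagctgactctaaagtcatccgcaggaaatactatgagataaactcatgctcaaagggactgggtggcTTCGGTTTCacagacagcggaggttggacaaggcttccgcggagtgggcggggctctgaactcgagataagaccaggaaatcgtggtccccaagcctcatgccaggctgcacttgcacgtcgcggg
Tgtp1 (chr11:48992197-48992496, minus strand): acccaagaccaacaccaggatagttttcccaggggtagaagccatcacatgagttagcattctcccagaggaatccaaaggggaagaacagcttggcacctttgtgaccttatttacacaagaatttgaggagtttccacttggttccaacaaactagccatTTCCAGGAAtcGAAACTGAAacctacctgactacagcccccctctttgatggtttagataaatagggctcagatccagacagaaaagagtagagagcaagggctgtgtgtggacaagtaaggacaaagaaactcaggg
Gbp2 (chr3:142620413-142620712, plus strand): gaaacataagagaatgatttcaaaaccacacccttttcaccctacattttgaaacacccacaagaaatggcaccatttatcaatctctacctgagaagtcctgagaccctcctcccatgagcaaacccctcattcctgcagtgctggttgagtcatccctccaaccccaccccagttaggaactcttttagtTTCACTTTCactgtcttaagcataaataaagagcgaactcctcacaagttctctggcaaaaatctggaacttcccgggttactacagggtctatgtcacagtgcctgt
Tgtp2 and Tgtp1 hold a GAS directly followed by an ISRE core, 81 and 88 bases before the start for the GAS and 70 and 77 bases before it for the ISRE core. Cd274 and Gbp2 hold an ISRE core on the opposite strand, 76 and 58 bases before the start. A promoter was listed for 31 of the 47 lower genes, and 15 of those (48.4%) held the ISRE core and 8 (25.8%) the GAS. Of the 14 higher genes with a promoter, 1 (7.14%) held the ISRE core and 1 the GAS. Over all 27025 genes with a promoter, 9.76% held the ISRE core and 9.55% the GAS. Over the 9993 of them that are in the expression table, 8.57% held the ISRE core and 8.21% the GAS. A match of letters is a description and shows no binding.

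Interferon-inducible GTPases were the group with the most members lower in 1wk muscle. Of 17 measured, 15 were lower and none higher, with a median log2 fold change of -1.99 beside -0.0037 over all genes. 14 of the 17 had every 1wk mouse below every PBS mouse. For each gene named from here on, the lowest, median and highest scaled value of the 8 mice of a group are given in that order. Tgtp2, an immunity-related GTPase first described in T cells, had 14.4, 59.2 and 136 in 1wk mice, against 369.9, 679 and 913 in PBS mice (log2 fold change -3.62, SE 0.50, adjusted p 1.35e-05). Its near-identical neighbor Tgtp1 had 29.5, 57.6 and 109 in 1wk mice, against 277, 609.5 and 734 in PBS mice (log2 fold change -3.22, SE 0.47, adjusted p 3.59e-05). Single reads of 50 bases can be split between the 2 genes, so their separate levels are uncertain. Both ranges leave a gap between the groups.

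The guanylate-binding proteins, which coat and disrupt pathogen vacuoles, fell in 7 of 8 cases. Gbp4 had 81.5, 129 and 268 in 1wk mice, against 572, 1189.7 and 1660.5 in PBS mice (log2 fold change -3.05, SE 0.36, adjusted p 1.88e-06). Gbp2 had 81.4, 106 and 124 in 1wk mice, against 217, 640.3 and 1594 in PBS mice (log2 fold change -2.68, SE 0.38, adjusted p 2.08e-05). The groups do not overlap for Gbp4 or Gbp2, and for Gbp2 C11 was the lowest PBS mouse and C9 the highest. Gbp5, which also promotes inflammasome assembly, had 34.5, 51.5 and 86.4 in 1wk mice, against 154, 327 and 582 in PBS mice (log2 fold change -2.64, SE 0.37, adjusted p 1.35e-05). Gbp3 had 53, 74.1 and 108 in 1wk mice, against 178, 451 and 661 in PBS mice (log2 fold change -2.33, SE 0.36, adjusted p 7.86e-05). Gbp6, Gbp9 and Gbp7 had log2 fold changes of -1.83, -1.62 and -1.53, and 1 mouse of the 1wk group overlapped the PBS range for Gbp6. Gbp10 (-1.99, adjusted p 0.133) did not pass, with 1 library of the 1wk group at 0.013. Gbp6, Gbp9, Gbp7 and Gbp10 were named after their values were seen.

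The immunity-related GTPases fell alongside. Iigp1, which destroys the vacuole of intracellular parasites, had 62.8, 85 and 175 in 1wk mice, against 329, 669 and 936 in PBS mice (log2 fold change -2.72, SE 0.33, adjusted p 1.88e-06). Ifi47 had 14.2, 16.8 and 32.6 in 1wk mice, against 41.6, 127 and 174 in PBS mice (log2 fold change -2.42, SE 0.38, adjusted p 0.000106). Their regulators changed less, with Igtp at -1.92, Irgm2 at -1.11 and Irgm1 at -0.98 on the log2 scale, each with all 8 mice of the 1wk group below all PBS mice and named after its values were seen. Gvin1, a very large interferon-inducible GTPase, had 100, 131 and 207 in 1wk mice, against 408, 535 and 750.1 in PBS mice (log2 fold change -1.92, SE 0.26, adjusted p 1.09e-05). Gm4070 shares the coordinates of Gvin1 and nearly all its reads (log2 fold change -1.92, SE 0.26, adjusted p 1.09e-05), and Gm18852 (log2 fold change -2.34, SE 0.36, adjusted p 5.64e-05) and Gm18853 (log2 fold change -2.32, SE 0.35, adjusted p 5.64e-05) overlap each other in the same way. On chromosome 7 the span of Gm18852 and Gm18853 lies within that of Gvin1 and Gm4070, so all 4 names overlap. The counts given here hold all 4 names, and with each pair counted once 45 genes were lower and 64 were called in all.

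**Figure D2:**
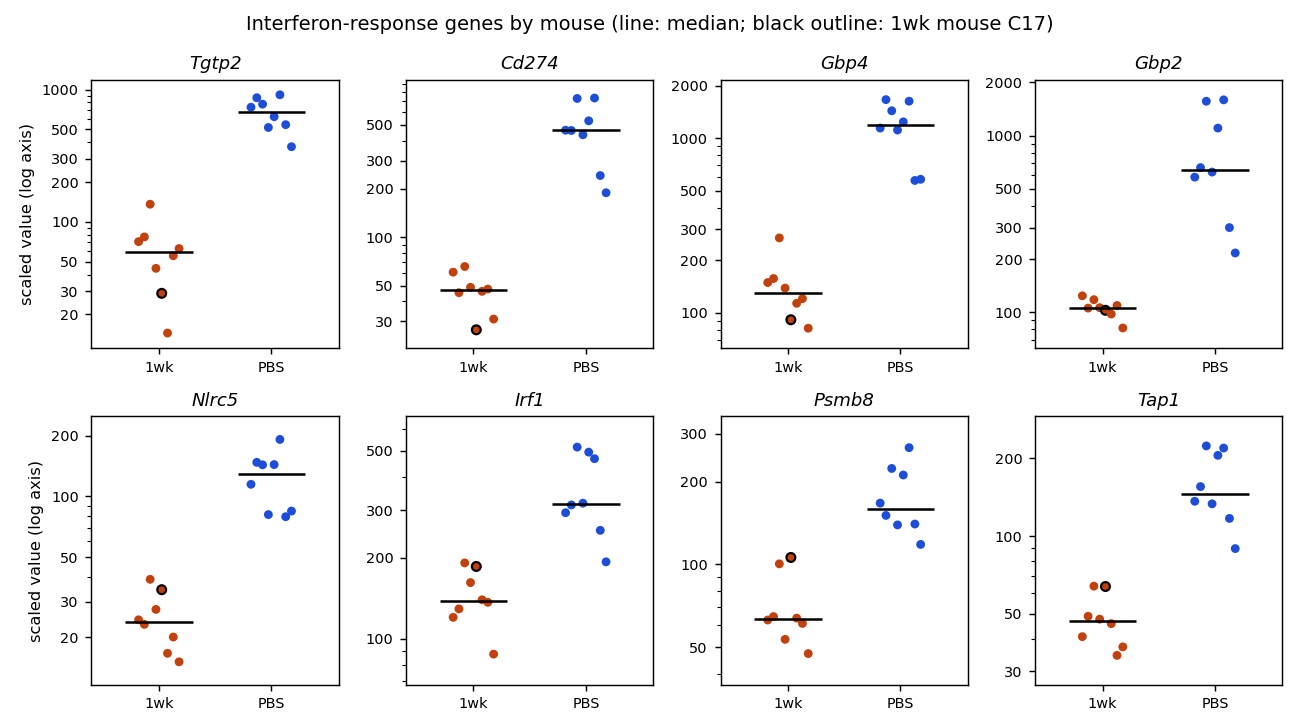
Scaled values (log axes) of 8 interferon-response genes in each 1wk mouse (orange, left) and each PBS mouse (blue, right), with lines at the medians and C17 outlined. The groups do not overlap for any of the 8 genes, and for Irf1 the gap is narrow (191 in the highest 1wk mouse, 193 in the lowest PBS mouse).

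Many of the lower genes sit next to each other. Gbp5, Gbp7, Gbp3 and Gbp2 lie on chromosome 3 (mm39, chr3:142202695-142343771) and all 4 were lower. Gbp9, Gbp4, Gbp10 and Gbp6 lie on chromosome 5 (mm39, chr5:105224332-105441565), where 3 of 4 were lower. Psmb9, Tap1, Psmb8 and Tap2 lie in the class II part of the MHC on chromosome 17 (mm39, chr17:34401073-34435295), and all 4 were lower. Chromosome 11, with 8.39% of the genes in the table, carried 9 of the 47 lower genes (19.1%), among them Irgm1, Tgtp1, Tgtp2, Ifi47, Igtp and Irgm2.

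Among receptors, transcription factors and regulators of the interferon pathway, 5 of 19 genes were lower and none was higher (median -0.07). Cd274, which encodes the checkpoint ligand PD-L1, had 26.5, 46.8 and 65.7 in 1wk mice, against 189, 463 and 736 in PBS mice (log2 fold change -3.25, SE 0.39, adjusted p 1.88e-06). C15 was the highest 1wk mouse and C11 the lowest PBS mouse, and the groups do not overlap. Nlrc5, the transactivator of MHC class I genes, had 15.1, 23.8 and 38.8 in 1wk mice, against 79.3, 129 and 191 in PBS mice (log2 fold change -2.25, SE 0.36, adjusted p 0.000124). Irf1, the factor that carries the gamma signal to ISRE elements, had 87.7, 138 and 191 in 1wk mice, against 193, 316 and 515 in PBS mice (log2 fold change -1.26, SE 0.20, adjusted p 0.000109). Its highest 1wk value lies just below its lowest PBS value, in C11. Stat2, which serves type I signaling, changed by -0.82 (adjusted p 0.0027), and 7 of 8 mice of the 1wk group lay below all PBS mice. The receptor chains and kinases gave no call. They and Stat2 were named after their values were seen. Ifngr1 was at 0.29 (adjusted p 0.0749), Ifngr2 at -0.14 (adjusted p 0.774), Jak1 at -0.05 (adjusted p 0.900) and Jak2 at 0.07 (adjusted p 0.924) on the log2 scale.

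Genes of MHC class I and antigen processing were lower in 6 of 19 cases and higher in none (median -0.53), and all 19 had negative fold changes. Tap1, a subunit of the transporter that carries peptides into the endoplasmic reticulum, had 34.6, 46.8 and 64 in 1wk mice, against 89.5, 146 and 223 in PBS mice (log2 fold change -1.69, SE 0.31, adjusted p 0.00107). Psmb9, a catalytic subunit of the immunoproteasome, had 14.5, 22.8 and 39.2 in 1wk mice, against 46.8, 66.1 and 100.3 in PBS mice. Psmb8, another, had 47.3, 63.2 and 106 in 1wk mice, against 118, 159 and 267 in PBS mice. Their log2 fold changes were -1.46 (SE 0.29, adjusted p 0.00434) and -1.33 (SE 0.21, adjusted p 0.000102), with no overlap between groups. Tap2 (-0.79), the class Ib gene H2-Q4 (-0.78, adjusted p 0.0682 without C17) and the peptide editor Tapbpl (-0.65) also passed. The classical heavy chains and the light chain did not pass, with H2-K1 at -0.29, H2-D1 at -0.07 and B2m at -0.30 (adjusted p 0.466, 0.914 and 0.415). Tap2, H2-Q4, Tapbpl and these 3 genes were named after their values were seen. None of 6 MHC class II genes passed (median 0.14). Cd74, the invariant chain, had 442, 476 and 945 in 1wk mice, against 397, 501 and 660.3 in PBS mice (0.11, adjusted p 0.890), and H2-Aa had 248, 284 and 702 in 1wk mice, against 217, 269.8 and 444 in PBS mice (0.16, adjusted p 0.839), so the ranges of the groups overlap.

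Of 39 measured effectors better known from type I interferon 4 were lower and none higher (median -0.42), and 37 of 39 had negative fold changes. Parp14, an ADP-ribosyltransferase, had 105, 145 and 187 in 1wk mice, against 176, 308 and 462 in PBS mice (log2 fold change -1.04, SE 0.19, adjusted p 0.00112). Uba7, the activating enzyme of the modifier ISG15, had 35.3, 72 and 99.6 in 1wk mice, against 89.7, 125 and 217 in PBS mice (log2 fold change -0.97, SE 0.22, adjusted p 0.0258). Uba7 did not pass with voom weights or without C20, C8 or C9 (highest adjusted p 0.0901). Trim21, a cytosolic antibody receptor, had 34, 37 and 43.5 in 1wk mice, against 54.6, 61.9 and 82.8 in PBS mice (log2 fold change -0.75, SE 0.13, adjusted p 0.000732), with no overlap. Dtx3l, a ubiquitin ligase, was the fourth (-0.60, and adjusted p 0.0751 without C17). The type I markers Isg15 (-0.71, adjusted p 0.232) and Ifit1 (-0.82, adjusted p 0.189) did not pass, and their groups overlap. These and Dtx3l were named after their values were seen. Of 6 measured chemokine, adhesion and related genes 1 was lower (median 0.14), Wars, a tryptophanyl-tRNA synthetase induced by interferon gamma. It had 359, 435 and 460.5 in 1wk mice, against 547, 816 and 1364 in PBS mice (log2 fold change -1.01, SE 0.15, adjusted p 5.64e-05). The listed chemokines Cxcl9, Cxcl10 and Cxcl11 were not in the deposited table, so their levels are not known.

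PBS mice varied in how high these genes stood. Over the 47 lower genes C9 was the highest PBS mouse for 23, and C11 was the lowest for 29 and C10 for 8. In the 1wk group C15 was the highest for 20 and C20 the lowest for 21. The mean log2 difference from the PBS mean over the 17 GTPases ran from -2.54 to -1.83 in 1wk mice (median -2.01), against -0.86 to 0.56 in PBS mice (median 0.15). C17 had the lowest 1wk mean (-2.54) and C15 the highest (-1.83). Leaving both out, 15 of 17 GTPases were still lower with a median of -1.97, and 8 of 19 class I genes and 5 of 39 type I effectors were lower. The GTPase mean was -1.92 to 0.31 in 2wk mice, -2.18 to -0.08 in LT mice and -2.44 to -1.54 in HT mice. LT and HT mice were taken at 11 to 12 weeks of age and PBS mice at 12 weeks, and the part of age in these values was not tested. All these values are set against the same 8 PBS mice.

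Outside these lists 16 of the 47 genes were lower in 1wk muscle. Gm4070, Gm18852 and Gm18853, which overlap the listed GTPase Gvin1, are counted among these 16. Several of the 16 are also induced by interferon. Tnfsf10, the death ligand TRAIL, had 42.3, 72.8 and 111 in 1wk mice, against 146, 241 and 363 in PBS mice (log2 fold change -1.62, SE 0.26, adjusted p 0.000132). Apol10b, of the apolipoprotein L family, had 19.4, 36.7 and 56.8 in 1wk mice, against 76, 169 and 274 in PBS mice (log2 fold change -2.15, SE 0.27, adjusted p 3.72e-06). Both kept all 1wk mice below all PBS mice. AW112010 (-0.88), the ADP-ribosyltransferase Parp10 (-0.67) and the ubiquitin ligase Rnf213 (-0.67) overlapped between groups. Tnfsf10, AW112010, Parp10 and Rnf213 were named after their values were seen.

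Other lower genes have metabolic or signaling roles. Gpx3, the secreted glutathione peroxidase, had 1943, 2293 and 2739.8 in 1wk mice, against 3487, 4102 and 5029 in PBS mice (log2 fold change -0.85, SE 0.11, adjusted p 8.85e-06), and it was the single call among 31 antioxidant genes (median -0.02). Pcx, pyruvate carboxylase, which feeds oxaloacetate to the TCA cycle, had 863, 1108 and 1426 in 1wk mice, against 1365, 1797 and 2292 in PBS mice (log2 fold change -0.68, SE 0.12, adjusted p 0.00114), and it was the single call among 23 TCA cycle genes (median -0.09). 7 of 8 mice of the 1wk group lay below all PBS mice for Pcx, and C17 was lowest. Rasd2, a small GTPase, had 208, 443 and 771 in 1wk mice, against 638, 963 and 1681 in PBS mice (-1.20, SE 0.21, adjusted p 0.000485). Mknk1, a kinase of the cap-binding factor eIF4E, changed by -0.31, Sqor, which oxidizes sulfide in mitochondria, by -0.30, and Cdc42bpg, a kinase that binds CDC42, by -0.57. Wdr60, a dynein chain of cilia, changed by -0.44 and Gpn3, needed to assemble RNA polymerase II, by -0.33. Rasd2, Mknk1, Sqor, Cdc42bpg, Wdr60 and Gpn3 were named after their values were seen. Mknk1, Sqor, Wdr60 and Gpn3 did not pass without C17 (adjusted p 0.129, 0.102, 0.0608 and 0.152), nor did Parp10 (adjusted p 0.134).

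The higher genes were led by the basement membrane. Of its 16 genes 4 were higher and none lower (median 0.28). Sparc, a collagen-binding glycoprotein, had 2917, 3945 and 6337 in 1wk mice, against 1749, 2192 and 2942 in PBS mice (log2 fold change 0.81, SE 0.14, adjusted p 0.000802). 6 of 8 mice of the 1wk group lay above all PBS mice, and C17 was highest. Col4a1, a chain of network collagen, had 1019, 1587 and 1888 in 1wk mice, against 865, 924 and 1229 in PBS mice (log2 fold change 0.62, SE 0.13, adjusted p 0.0112). Nid1, which links laminin to collagen IV, had 1201, 1355 and 1696 in 1wk mice, against 667, 953 and 1189.5 in PBS mice (log2 fold change 0.59, SE 0.12, adjusted p 0.00537), with no overlap and C18 the highest mouse. Lamb1, a laminin chain, had 375, 512 and 565 in 1wk mice, against 291, 329.5 and 369 in PBS mice (log2 fold change 0.56, SE 0.11, adjusted p 0.00434), again with no overlap. Without C17 the 4 genes had log2 fold changes of 0.71, 0.57, 0.59 and 0.54 and all passed (adjusted p 0.00314, 0.0411, 0.00964 and 0.0138). Without C17 and C15 Col4a1 (adjusted p 0.119) and Lamb1 (adjusted p 0.0523) did not. The partner chain Col4a2 and the laminin chain Lamc1, named after their values were seen, were at 0.49 and 0.28 (adjusted p 0.0719 and 0.245).

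**Figure D3:**
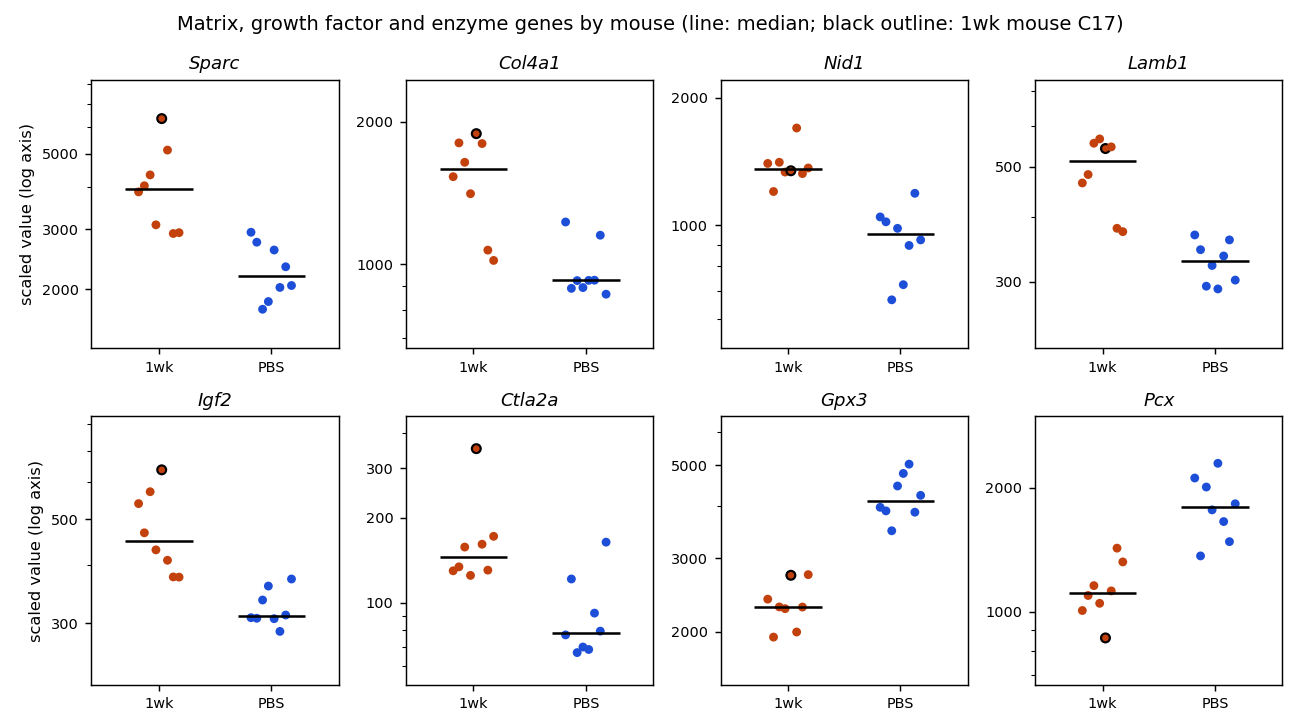
Scaled values (log axes) of 8 genes in each 1wk mouse (orange, left) and each PBS mouse (blue, right), with lines at the medians and C17 outlined. Nid1, Lamb1, Igf2 and Gpx3 show no overlap between groups, and C17 is the highest 1wk mouse for Sparc, Col4a1, Igf2 and Ctla2a.

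The other 15 higher genes carry varied roles. Igf2, an imprinted growth factor high in young muscle, had 377, 449 and 638 in 1wk mice, against 288, 311 and 373 in PBS mice (log2 fold change 0.53, SE 0.12, adjusted p 0.0271), with no overlap, and it was the single call among 18 imprinted and juvenile growth genes (median 0.42). Without C17 its adjusted p was 0.101. Ggta1, a galactosyltransferase, had 148, 169.7 and 218 in 1wk mice, against 92.8, 125 and 151 in PBS mice (log2 fold change 0.55, SE 0.11, adjusted p 0.00754) and passed without C17 and C15 (adjusted p 0.0492). Rnf125, a ubiquitin ligase, had 72.8, 84.1 and 102 in 1wk mice, against 34.5, 60.7 and 72.2 in PBS mice (log2 fold change 0.61, SE 0.15, adjusted p 0.0386), with no overlap. Ctla2a, an inhibitor of cathepsin-like proteases and the single call among 24 endothelial markers (median 0.23), had 125, 146 and 351 in 1wk mice, against 66.7, 78.3 and 164 in PBS mice (log2 fold change 0.86, SE 0.20, adjusted p 0.0281). 2 of 8 mice of the 1wk group lay above all PBS mice for Ctla2a. Without C17 the adjusted p was 0.0608 for Rnf125 (log2 fold change 0.63) and 0.107 for Ctla2a (0.70). For Rnf125 the value of C17 (80.0) lay below the 1wk median.

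C17 was the highest 1wk mouse for 14 of the 19 higher genes. Slc25a24, a mitochondrial carrier of ATP and phosphate, had 42.9, 77.2 and 222 in 1wk mice, against 28, 45.7 and 61.3 in PBS mice (log2 fold change 0.81, SE 0.20, adjusted p 0.0409). Vsir, the checkpoint receptor VISTA, had 141, 206 and 468 in 1wk mice, against 104, 138 and 169.9 in PBS mice (log2 fold change 0.65, SE 0.16, adjusted p 0.0351). Entpd1, the ectonucleotidase CD39, had 135, 176 and 306 in 1wk mice, against 84.6, 118 and 172 in PBS mice (log2 fold change 0.58, SE 0.14, adjusted p 0.0285). In each the top value was that of C17. Zfp36l2, which promotes mRNA decay, had 160.3, 263 and 463 in 1wk mice, against 129, 173 and 204 in PBS mice (log2 fold change 0.60, SE 0.14, adjusted p 0.0266). Plau, the urokinase protease, had 283, 359.9 and 591 in 1wk mice, against 213, 244 and 318 in PBS mice (log2 fold change 0.53, SE 0.13, adjusted p 0.0371). Map4k4, a stress kinase, had 235, 294 and 557 in 1wk mice, against 189.6, 218 and 255 in PBS mice (log2 fold change 0.52, SE 0.12, adjusted p 0.0285), and Gm6548 had 259.9, 339 and 703 in 1wk mice, against 203, 245 and 308 in PBS mice (log2 fold change 0.52, SE 0.13, adjusted p 0.0404). None of these 7 passed without C17, with adjusted p values of 0.126 for Slc25a24, 0.109 for Vsir and Entpd1, 0.0953 for Zfp36l2, 0.144 for Plau, 0.0959 for Map4k4 and 0.109 for Gm6548. Cald1, Ltbp1, Map3k1 and Rgl1, the remaining higher genes, had log2 fold changes of 0.49 to 0.50 and did not pass without C17 either. Those 4 were named after their values were seen. Loss of calls was not particular to C17. Leaving out 1 PBS mouse left 6 higher genes without C8, 6 without C9 and 7 without C5, against 5 without C17.

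Fibrillar collagens and other matrix genes gave no call, but nearly all had positive fold changes. All 17 fibrillar and associated collagens did (median 0.62, range 0.24 to 1.01), and so did 42 of 43 matrix glycoproteins, proteoglycans and remodeling enzymes (median 0.51). Without C17 and C15 the medians were 0.45 and 0.34, again with no call. Col3a1 had 1478, 2702 and 7148 in 1wk mice, against 982, 1593 and 2853 in PBS mice (0.82, adjusted p 0.319) and Col1a2 had 1135, 1899 and 3920.3 in 1wk mice, against 694, 964 and 1676 in PBS mice (0.89, adjusted p 0.186). With a weight for each library both passed (adjusted p 0.0404 and 0.00713). Dcn, the proteoglycan decorin, had 4070.3, 4860.0 and 6042 in 1wk mice, against 2969, 4051 and 7147 in PBS mice (0.20, adjusted p 0.532) and Timp3, a protease inhibitor, had 1464, 2161 and 2396 in 1wk mice, against 1292, 1649 and 2563 in PBS mice (0.19, adjusted p 0.581).

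Macrophage markers also gave no call. All 31 in the table had positive fold changes (median 0.64), but the median was 0.33 without C17 and 0.17 without C17 and C15. Lyz2, lysozyme of myeloid cells, had 642, 850.5 and 6272 in 1wk mice, against 427, 801 and 1111 in PBS mice (0.70, adjusted p 0.331), and C1qb, a complement chain made by macrophages, had 160.0, 204 and 1154 in 1wk mice, against 106, 219 and 279 in PBS mice (0.49, adjusted p 0.536). For both, the top 1wk value is that of C17 and the medians of the groups are close. Spp1, which encodes osteopontin, was highest in C17 (3058), C16 (728) and C15 (534), with the other 5 mice of the 1wk group at 14.1 to 47, against 7.81 to 42.5 in PBS mice. Postn, a matrix protein of injured tissue, was at 2053 in C17 and 777 in C15, against 68.4 to 179 in PBS mice. Mki67, a proliferation marker, was at 394 in C17, 84.7 in C15 and 79.7 in C16, against 4.09 to 12.1 in PBS mice. Myh3, the embryonic myosin of regenerating fibers, was at 752 in C17, against 46.4 to 117 in PBS mice. Spp1, Postn, Mki67 and Myh3 were named after their values were seen. The part of this mouse's cell makeup in its other differences was not tested.

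**Figure D4:**
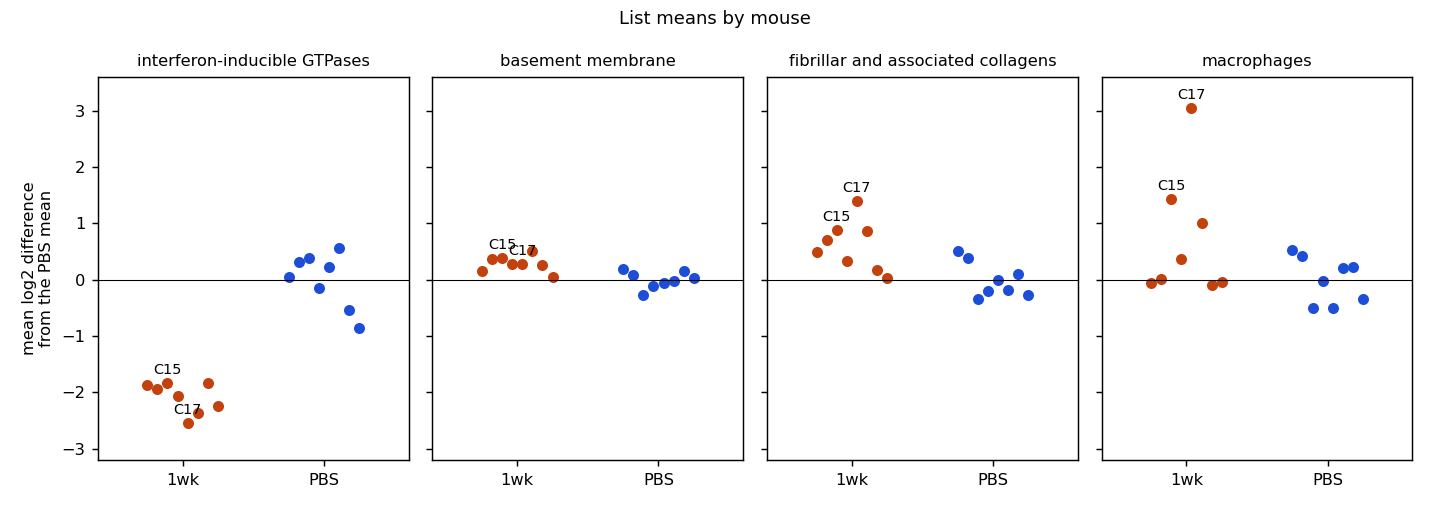
Mean log2 difference from the PBS mean over the genes of 4 lists, for each 1wk mouse (orange, left) and each PBS mouse (blue, right), with C17 and C15 named. The GTPase means of the 2 groups are apart, while in the macrophage panel C17 (3.05) and C15 (1.44) are the highest 1wk mice.

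Other markers of immune and stromal cells gave no call in the fit reported here. Of 6 neutrophil genes none passed (median 0.66, and 0.07 without C17 and C15). Lcn2, lipocalin 2, had 4.78, 9.91 and 168 in 1wk mice, against 3.91, 7.95 and 26.9 in PBS mice and Mmp9, gelatinase B, had 5.05, 18.1 and 32.7 in 1wk mice, against 9.77, 14.8 and 25.3 in PBS mice. None of 15 phagosome and NADPH oxidase genes passed (median 0.31, and 0.06 without C17 and C15). Of these, the lysosomal protease Ctsd was at 0.08 and the membrane protein Lamp1 at 0.02. Among 19 fibroblast genes (median 0.20) Gsn and Smoc2 were at 0.21 and 0.17, and among 11 Schwann cell genes (median 0.34) the myelin gene Pmp22 was at 0.51 (adjusted p 0.0251 with a weight for each library, where it passed). Globin genes overlapped, with Hbb-b1 at 2426, 5846 and 8182 in 1wk mice, against 2968, 3775 and 11465 in PBS mice and Hba-a1 at 1909, 4292 and 6835 in 1wk mice, against 2149, 3026 and 8974 in PBS mice (0.27 and 0.23). The adipocyte genes Car3 and Plin4 were at -0.15 and -0.08, and the tendon genes Fmod and Thbs4 at 0.39 and 0.52. Adjusted p values of the members named here were 0.273 to 0.959.

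The metallothioneins, which bind zinc and rise with glucocorticoids and inflammation, were high in single mice. Mt2 had 109, 207 and 3626 in 1wk mice, against 60.7, 112 and 281 in PBS mice (1.47, adjusted p 0.367), and Mt1 had 149, 215 and 2497 in 1wk mice, against 113, 151 and 394 in PBS mice (1.04, adjusted p 0.501). Both maxima are those of C17. C20 was next (1135 for Mt2 and 1011 for Mt1) and also lay above every PBS mouse. The median of the 3 metallothioneins was 1.47 with all mice and 0.88 without C17 and C15, where C20 was kept. None of 15 glucocorticoid-responsive genes passed, with Glul, glutamine synthetase, at -0.04 and Tsc22d3, which encodes GILZ, at 0.11.

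Genes of the contractile and metabolic machinery of the fiber gave 1 call, that of Pcx. No gene passed among 15 of fast fibers (median -0.16), 12 of slow fibers (-0.13), 37 of respiratory complex I (-0.12), 41 of complexes II to V (-0.11), 24 of fatty acid oxidation (-0.05) and 22 of glycolysis and glycogen (-0.06). Without C17 and C15 the medians were -0.12 for fast fibers, 0.23 for slow fibers and 0.01 for complexes II to V. They were 0.09 for fatty acid oxidation and 0.03 for glycolysis and glycogen. The fast myosin Myh4 had 372806, 497712 and 657989 in 1wk mice, against 399575, 663370.0 and 854918 in PBS mice (-0.41, adjusted p 0.387), and the slow myosin Myh7 had 1335, 5783 and 12438 in 1wk mice, against 479, 7668 and 9424 in PBS mice (-0.16, adjusted p 0.957), with ranges that overlap widely. 36 of 37 complex I genes had negative fold changes, but without C17 and C15 12 had positive ones, and their median was then -0.04. Ndufa4, counted in the complex I list by its name, was at -0.09, and Atp5b and Atp5a1, chains of ATP synthase, were at -0.13 and -0.09. Hadhb and Fabp3 were at -0.04 and -0.02, and Aldoa and Eno3 at -0.10 and -0.20. Tpm1 and Actn2 were at -0.24 and 0.05.

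Programs tied to muscle wasting gave no call at 1 week. Among 26 genes of atrophy and FoxO signaling none passed (median 0.06). Pdk4, which blocks pyruvate oxidation on fasting, ranged over 814, 5166 and 30251 in 1wk mice, against 2003, 4217 and 7640.2 in PBS mice (0.32, adjusted p 0.887), and Nfe2l1, which induces proteasome genes, was at -0.17. Of 31 constitutive proteasome genes none passed (median -0.04, range -0.14 to 0.08), with Psmb7 at -0.04 and Psmd2 at 0.01. No gene passed among 22 of JAK-STAT signaling (median 0.21), where Stat5b was at -0.22 and the shared receptor Il6st at -0.06. Stat2, which was lower (-0.82), was counted with the regulators of the interferon pathway and not in this list. None passed among 16 satellite cell and differentiation genes (0.32, and -0.03 without C17 and C15), with Des at 0.01 and Actc1 at -0.24. Nor did any of 11 proliferation genes (0.26, and 0.11 without C17 and C15), with Pcna at 0.04 and Mcm7 at 0.08. The junction genes Hdac4 and Chrnb1 were at -0.17 and 0.18, the clock genes Tef and Nr1d2 at -0.22 and -0.09, the early genes Nr4a1 and Jun at -0.0038 and 0.13, the chaperones Hspa8 and Hsp90ab1 at -0.06 and -0.05, and the complement genes C3 and Serping1 at 0.08 and 0.26. No member of those 5 lists passed.

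**Figure D5:**
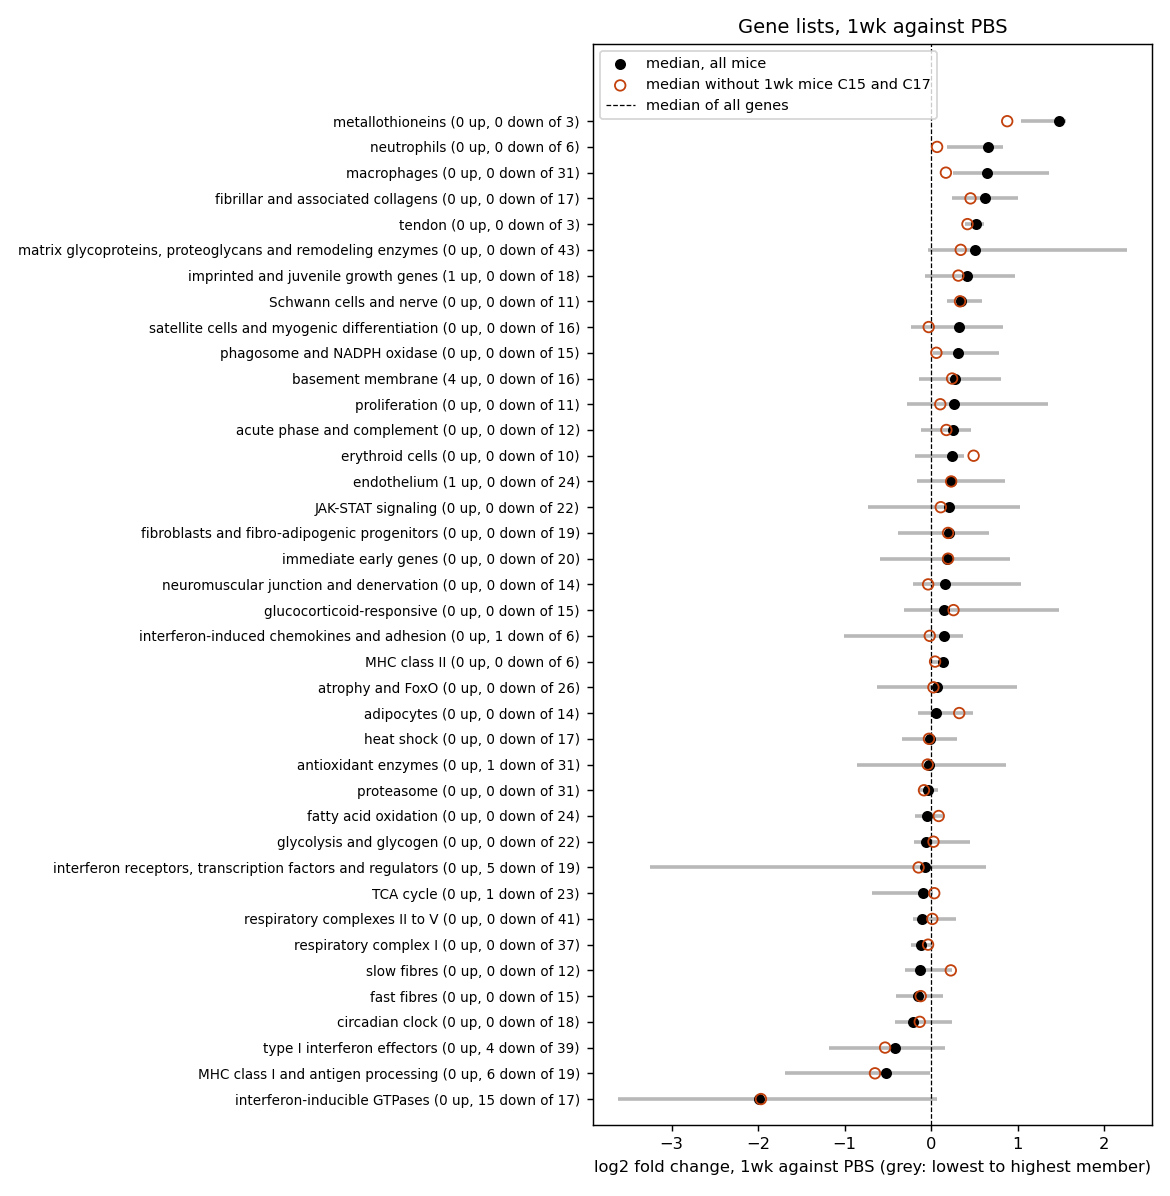
Median log2 fold change of 1wk against PBS (black points), lowest to highest member (grey bars) and median without C15 and C17 (open circles) for each gene list, with called and measured members in brackets. The GTPases lie at -1.99 with both mice and at -1.97 without them, while macrophage markers lie at 0.64 and 0.17.

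Against 2wk muscle, 1wk muscle differed in 2 genes, 0.0159% of those tested. With voom weights, or without C14, C18, C28 or C32, no gene passed, and a weight for each library gave 95. Irgm2, a regulator of the immunity-related GTPases, was lower in 1wk (log2 difference -1.12, adjusted p 0.0193). It had 146, 210.0 and 265 in 1wk mice, against 223, 507 and 684 in 2wk mice, and the ranges overlap. Mknk1 had 306, 357 and 413 in 1wk mice, against 444, 482 and 526 in 2wk mice, without overlap (-0.42, adjusted p 0.0172). Genes far below PBS did not pass in this contrast, with Tgtp2 at -1.89 (adjusted p 0.315), Gbp4 at -1.19 (adjusted p 0.433) and Cd274 at -1.15 (adjusted p 0.553). Median scaled values of Cd274 were 46.8 in 1wk, 65.8 in 2wk, 61.3 in low-mass and 27.5 in high-mass mice, against 463 in PBS mice. Those of Irf1 were 138 in 1wk, 167 in 2wk, 155 in low-mass and 140.5 in high-mass mice, against 316 in PBS mice. Those of Sparc were 3945 in 1wk, 2696 in 2wk, 2559 in low-mass and 2993 in high-mass mice, against 2192 in PBS mice. LT and HT libraries were shallower, at 3.52 to 7.78 M reads.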

How the data were processed

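Whole gastrocnemius RNA was sequenced by the authors as 50-base single reads from stranded libraries. The authors aligned reads with STAR 2.7.8a, counted them per gene, dropped genes under a minimum of 30 reads and scaled by DESeq2 median-ratio size factors. The deposited values are therefore a signal, scaled and not whole, and no count model was run on them. Coordinates matched mm39. Depth was read from the step between low values, 19.4 to 26.7 M (mega) reads for 1wk and 19.4 to 28.7 M for PBS libraries. log2(value + 1) was fitted with limma 3.58.1 (R 4.3.3, trend) over 40 mice in 5 groups, with Benjamini-Hochberg adjustment over 12573 genes and a threshold of 0.05. The procedure was tested on simulated data.

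Members and gene lists were chosen with earlier results of these data known. Named genes were the 15 highest and 15 lowest called genes with a group mean of at least 10, up to 3 called members of each list, and the 2 most abundant members of lists with no call. Alternatives changed the groups fitted, pseudocount, filter, scaling, weights, thresholds and mice included. A few genes are not reported here.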

Additional observations from a re-analysis of the deposited data

Results flagged for a closer look

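In 10 of 80 groups of 8 mice tested, 1 mouse lay far from the others. The measure was the gap to the next mouse as a share of the range of the group. It was taken on scaled values, and the log2 values used in the fits were not tested this way. A chance rate of about 1 in 20 groups would need normal values and independent groups. The groups share the same mice, so the 10 cannot be set against that rate. C17 was the mouse set apart in 7 of the 10. It was the highest 1wk mouse for Ctla2a (351.3, next 172.0), Slc25a24 (221.8, next 98.63), Vsir (468.4, next 244.8), Entpd1 (306.3, next 204.6), Plau (591.3, next 414.9), Map4k4 (557.3, next 360.6) and Gm6548 (702.8, next 400.0). C15 was the highest 1wk mouse for Gbp4 (268.0, next 156.9) and Iigp1 (175.3, next 114.2), both still below every PBS mouse. C18 was the highest for Nid1 (1696, next 1408).

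Irgm2 and Mknk1 differed between 1wk and 2wk mice by the contrast of these groups (limma, log2 differences -1.118 and -0.42, adjusted p 0.0193 and 0.0172). Neither passed with voom weights or without C14, C18, C28 or C32, where 0 genes were called (955 at an unadjusted p under 0.05 in the reported fit).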

How the results depend on the processing

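Of 66 genes called, 52 were shared with a fit of the 2 groups alone, which called 31 higher. With a weight for each library 729 genes were called (468 higher, 261 lower), and the share of higher genes among the calls was 64.2%, against 28.8% in the reported fit. That share was 6.25% without C15 and C17, which left 3 higher genes. An adjusted p under 0.01 left 40 genes (4 higher), and one under 0.1 gave 112 (51 higher). At least 1.5-fold was reached by 8 higher genes. Leaving out 1 mouse at a time gave 43 (without C9) to 103 (without C4) calls, 5 (without C15 or C17) to 48 (without C20) higher and 37 (without C9) to 60 (without C4) lower. For 1wk against 2wk, library weights called 95 genes and voom weights 0, against 955 at an unadjusted p under 0.05 in the reported fit, and leaving out 1 mouse gave 0 (without C14, C18, C28 or C32) to 8 (without C27). The causes were not tested. None of the 40 named genes that were called changed direction in the 26 alternatives, while 25 of the 58 that were not called had fold changes of both signs across them. Of the called ones, 24 of the 25 lower ones (all but Uba7) and 3 of the 15 higher ones passed in all 26. No paired analysis was possible because each mouse belongs to 1 group and replicate numbers only follow the order of the samples. Age and time since injection differ between the groups and cannot be told apart from the tumor.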
